A study of Mus musculus with 469 samples.

Results

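The 10 genes described here encode the core of the Polycomb repressive complexes: Ezh2, Ezh1, Suz12, Eed, Rbbp4, Rbbp7 and Jarid2 of Polycomb repressive complex 2 (PRC2), and Bmi1, Ring1 and Rnf2 of Polycomb repressive complex 1 (PRC1). They were chosen by name, with earlier results of these data known, and all 10 were among the 23281 genes of the deposited tables. Ezh2 was the member with the most pairs of groups whose share of cells had separate intervals. It was found in 54.2% to 76% of cells sorted for a reporter of neuronal precursors, in 6.9% to 23.8% of cells sorted for a reporter of mature neurons, and in 18.8% of unsorted cells. Ezh1, its paralog, was found in 9.52% to 24.1% of cells in every group. The balance of mean levels lay toward Ezh2 in the sorts for the precursor reporter, which also held many immature neuron markers, and in mature neurons after injury. It lay toward Ezh1 in engrafted neurons. In unsorted cells with higher mature neuron markers it lay less far toward Ezh1, and their Ezh1 mean rested largely on 1 run.

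The libraries were made from single cells of the mouse olfactory epithelium with the Fluidigm C1 system, which isolates cells in a microfluidic chip and amplifies the polyadenylated RNA of each. Cells positive for Neurog1-eGFP came from FVB Neurog1-eGFP mice that were uninjured (61 libraries), 5 days after olfactory bulbectomy (51) or 14 days after it (26). Cells positive for OMP-eGFP came from B6 OMP-eGFP mice 14 days after bulbectomy (50) or from epithelium after transplantation, labelled as engrafted OMP+ neurons (89). The unsorted reference came from uninjured B6;129SF1/J (F1) wildtype mice in 2 runs of 96 libraries. All mice were 8 weeks old. Bulbectomy removes the target of the olfactory sensory neurons, which then die and are replaced from basal progenitors. The labels do not say how the reporters were built. A reporter protein can outlast its transcript, so a Neurog1-eGFP sort can hold precursors together with their progeny. Strain and sort cannot be told apart, since each sort came from its own strain.

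No label gives the animal a cell came from. Every group was therefore taken as 1 sample, with no test. After libraries with fewer than 1000 genes were left out, 46, 48 and 25 cells of the Neurog1 sorts remained (uninjured, 5 days, 14 days), with 42 cells of the 14 day OMP sort, 29 engrafted cells, and 68 and 70 cells of the reference runs. Levels are in CPM, the share of a gene in the summed signal of its cell on the usual scale. A gene was called found where its CPM reached 10. Shares carry exact Clopper-Pearson 95% intervals, which cover the counting of cells only and not animals. How often intervals lay apart over all genes was not computed, so such counts describe the named genes and have no background. A difference is the log2 ratio of mean CPM + 1. Fragments recovered per cell had group medians of 501827 to 1347936, and the engrafted sort lost 60 of its 89 libraries to the filter.

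Several libraries stood apart from the rest. In run 1 of the reference, 9 libraries held more than 10000 genes, and all 9 had Ezh2, Ezh1, Suz12, Eed and Jarid2 found. In 3 pairs of libraries, 2 of them in the 5 day Neurog1 sort, log2(CPM + 1) correlated with a Pearson r of 0.943 to 0.994 across genes, where the next highest pair of libraries with 10000 genes or fewer stood at 0.652. They were kept as labelled, and values without them are given where they matter. Sustentacular markers, those of the supporting cells, were found at 5 or more of 10 in 1, 2 and 1 cells of the Neurog1 sorts, in 3 of the 14 day OMP sort and in 3 engrafted cells. The defining markers fitted the labels of the sorts in part: Omp was found in 97.6% of 14 day OMP cells and 75.9% of engrafted cells, and Neurog1 itself in 50%, 37.5% and 48% of the Neurog1 sorts. Of 10 immature neuron markers, 5 or more were found in 44 of 46, 45 of 48 and 24 of 25 cells of the Neurog1 sorts. Of 7 markers of immediate neuronal precursors, 5 or more were found in 3, 5 and 2 of these cells. Of the immune markers, 7 of 7 were at 0 in the Neurog1 sorts at 5 and 14 days.

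PRC2 places methyl groups on lysine 27 of histone H3, a mark of repressed chromatin. Ezh2 and Ezh1 are alternative catalytic subunits, Suz12 and Eed are needed for the complex to assemble and act, Rbbp4 and Rbbp7 are histone-binding subunits shared with other chromatin complexes, and Jarid2 is an accessory subunit that helps target PRC2. PRC1 places ubiquitin on histone H2A through the ligases Ring1 and Rnf2 (Ring1B), with Bmi1 as a partner of the ligase. Ezh2 is known as the form of dividing and progenitor cells, and Ezh1 as the form that is kept in differentiated cells.

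The genes lie on chromosomes 6 (Ezh2), 11 (Ezh1 and Suz12), 7 (Eed), 4 (Rbbp4), X (Rbbp7), 13 (Jarid2), 2 (Bmi1), 17 (Ring1) and 1 (Rnf2). The promoter windows of 3 members are shown. Ezh2 and Ezh1 were taken because their balance lay toward Ezh1 in the engrafted sort and toward Ezh2 in the other sorts. Suz12 was taken because it was higher together with Ezh2 in the uninjured Neurog1 sort. All 10 members had a window, Jarid2 at 2 starts. Each window runs from 250 bases before to 50 after the gene start in RefSeq's annotation of build GRCm38.p6, 5′ to 3′ on the gene's strand, and capitals mark CCAAT on either strand (read as CCAAT or ATTGG). The deposited tables were made on build mm9, so these coordinates are not theirs. The Ezh2 window is chr6:47594981-47595280 (minus strand), the Ezh1 window chr11:101226414-101226713 (minus strand) and the Suz12 window chr11:79992856-79993155 (plus strand).
Ezh2: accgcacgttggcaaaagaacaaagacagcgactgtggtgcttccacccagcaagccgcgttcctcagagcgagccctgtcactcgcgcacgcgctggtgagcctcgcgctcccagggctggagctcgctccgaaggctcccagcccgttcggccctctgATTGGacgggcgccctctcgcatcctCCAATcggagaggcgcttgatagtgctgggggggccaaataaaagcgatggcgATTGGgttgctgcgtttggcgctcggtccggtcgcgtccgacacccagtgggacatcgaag
Ezh1: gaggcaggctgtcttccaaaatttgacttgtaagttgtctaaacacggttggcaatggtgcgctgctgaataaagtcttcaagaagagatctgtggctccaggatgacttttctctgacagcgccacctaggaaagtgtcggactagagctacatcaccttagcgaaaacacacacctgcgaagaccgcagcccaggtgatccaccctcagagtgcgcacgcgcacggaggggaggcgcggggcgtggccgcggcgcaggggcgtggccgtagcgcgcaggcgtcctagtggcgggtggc
Suz12: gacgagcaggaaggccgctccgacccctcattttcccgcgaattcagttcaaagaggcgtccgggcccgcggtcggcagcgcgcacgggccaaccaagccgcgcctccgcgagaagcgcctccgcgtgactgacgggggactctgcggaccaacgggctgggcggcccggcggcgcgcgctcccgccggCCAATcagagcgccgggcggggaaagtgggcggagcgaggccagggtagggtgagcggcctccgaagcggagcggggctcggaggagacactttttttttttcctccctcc
The Ezh2 window held 3 CCAAT matches, which began 90, 64 and 11 bases before the gene start, the Ezh1 window held 0, and the Suz12 window 1. Of 32851 RefSeq mouse windows, 37.4% held at least 1 such match and 3.37% held 3 or more. Suz12 and Rbbp4 held GCGNGAA, an E2F-type motif, which was in 8.91% of all windows. None of the members' windows held CAGATG (17.2% of windows), an E-box of the kind bound by Neurog and Neurod factors, or an NRF1-type motif of 10 bases (0.971%). All 4 motifs were searched on both strands, and a match describes letters, not a bound site. The Ezh2 window held 31 CpG and the Ezh1 window 23, where the median window held 7.

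Ezh2 was found in 26 of 46 uninjured Neurog1 cells (56.5%, interval 41.1 to 71.1), 26 of 48 at 5 days (54.2%, 39.2 to 68.6) and 19 of 25 at 14 days (76%, 54.9 to 90.6). In the 14 day OMP sort 10 of 42 cells had it (23.8%, 12.1 to 39.5), in the engrafted sort 2 of 29 (6.9%, 0.846 to 22.8), and in the reference 26 cells (18.8%, 12.7 to 26.4). The intervals did not overlap in 8 of the 15 pairs of groups, and each of these 8 set a Neurog1 sort against an OMP sort or the reference. The 1 such pair that did overlap was the 5 day Neurog1 sort with the 14 day OMP sort, and no pair among the Neurog1 sorts was apart. Without the 9 large libraries, 13.2% of reference cells had Ezh2 (7.87 to 20.3).

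Per cell, the Ezh2 CPM in the uninjured Neurog1 sort had a lowest value of 0, a median of 76.8 and a highest of 3030. At 5 days these were 0, 15.1 and 2205, and at 14 days 0, 81.5 and 4319. In the other groups the lowest value and the median were 0. There the highest cell reached 716 in the 14 day OMP sort, 80.8 in the engrafted sort and 604.6 in the reference. The upper ranges of the Neurog1 sorts thus lay above every cell of the other groups, while the lower ranges overlapped in full. Mean CPM was 349.8, 255.01 and 503.7 in the Neurog1 sorts at the 3 stages, 63.2 in 14 day OMP cells, 3.9 in engrafted cells and 21.7 in the reference.

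**Figure D1:**
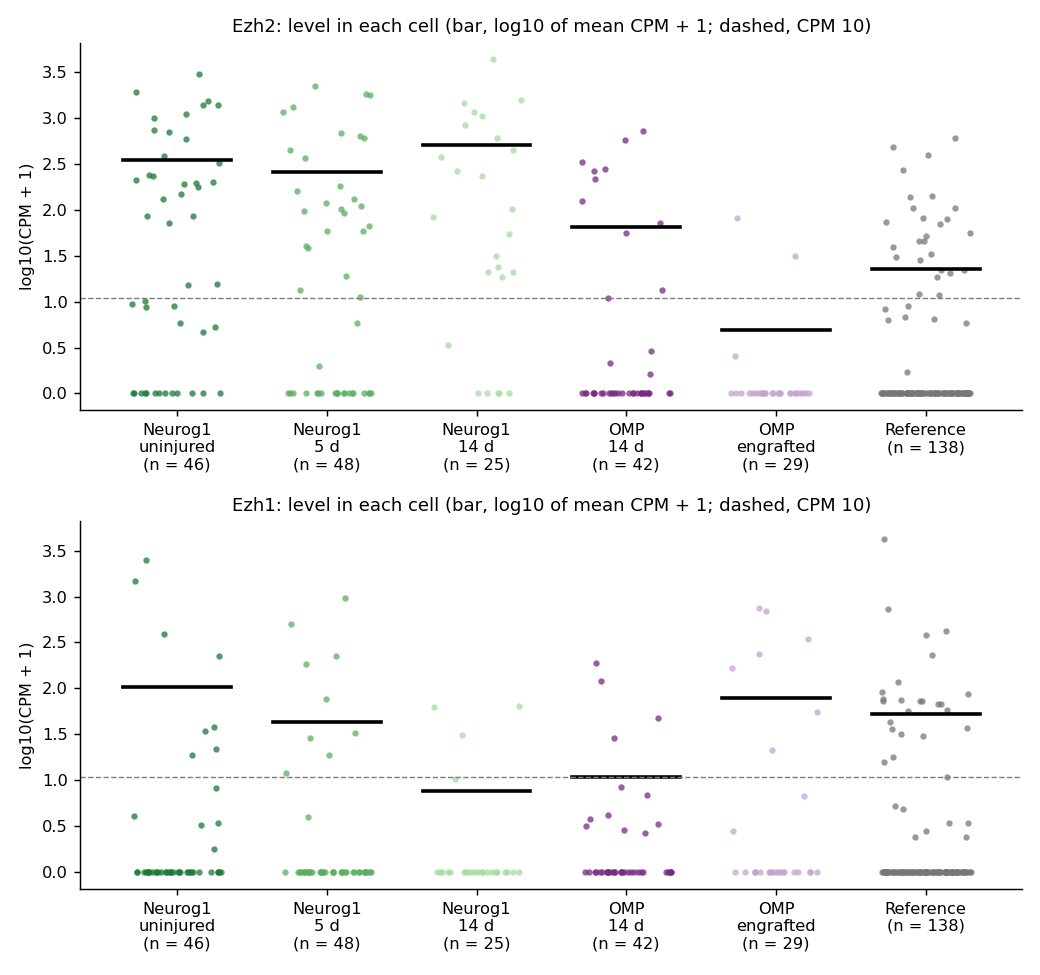
Level of Ezh2 (top) and Ezh1 (bottom) in each cell as log10(CPM + 1), by group, with 1 point per cell, a bar at the log10 of the group's mean CPM + 1 and a dashed line at a CPM of 10. Most Ezh2 points above the line are in the Neurog1 sorts, where the highest cell of each stage stands at 2205 CPM or more, while Ezh1 has few cells above the line in every group.

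The uninjured Neurog1 sort stood above the reference in mean Ezh2 by 3.95 on the log2 scale, with 3.85 against run 1 of the reference alone and 4.06 against run 2 alone. Over the 14 alternative settings this difference stayed between 3.51 and 4.06. Within the Neurog1 sorts, the log2 difference was −0.45 at 5 days over uninjured, 0.52 at 14 days over uninjured and 0.98 at 14 over 5 days. A pair of alike libraries at 5 days held Ezh2 at 1808 and 2205 CPM and made up 32.8% of that group's summed Ezh2 CPM. Without both, the 5 day mean was 178.9 CPM, with Ezh2 found in 24 of 46 cells, and with each alike pair counted once the 14 over 5 day difference was 1.18.

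At 14 days after bulbectomy, OMP cells stood below Neurog1 cells in mean Ezh2 (63.2 against 503.7 CPM, log2 ratio −2.98), the largest difference among the 9 measured members in that comparison. Engrafted OMP cells were lower still, at 3.9 CPM against 63.2 in 14 day OMP cells (−3.71), but the share intervals of these groups overlapped. Compared with the 65 reference cells in which mature neuron markers summed higher than sustentacular markers, 14 day OMP cells had the higher mean (63.2 against 18.6 CPM, 1.71) and engrafted cells the lower (3.9 against 18.6 CPM, −2.00), again with intervals that overlapped. Of all reference cells, 28 lay within 2-fold of that marker split, so the set is a range and not a cell type. The overlapping gene F830010H11Rik is not separable from Ezh2 here, because the Nextera XT kit does not record the strand.

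The order of the groups by share was the same after thinning. Thinning each cell to 100000 fragments gave Ezh2, at 1 fragment or more, in 60%, 54.2% and 72% of the Neurog1 sorts, 26.2% of 14 day OMP cells, 7.69% of engrafted cells and 21.3% of reference cells. The thinning left out 1 uninjured Neurog1 cell, 3 engrafted cells and 2 reference cells as too shallow.

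Ezh1 was sparse everywhere. It was found in 8 of 46 uninjured Neurog1 cells (17.4%, interval 7.82 to 31.4), 9 of 48 at 5 days (18.8%, 8.95 to 32.6) and 3 of 25 at 14 days (12%, 2.55 to 31.2). The 14 day OMP sort had 4 of 42 (9.52%, 2.66 to 22.6), the engrafted sort 7 of 29 (24.1%, 10.3 to 43.5) and the reference 24 cells (17.4%, 11.5 to 24.8). All 15 pairs of intervals overlapped, so no ordering of the groups by share of cells holds up.

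The mean CPM of Ezh1 rested on few cells. It was 102.4 in the uninjured Neurog1 sort, 42.6 at 5 days, 6.62 at 14 days, 9.78 in 14 day OMP cells, 78.5 in engrafted cells and 51.9 in the reference. The single highest cell held 53% of the summed CPM in the uninjured Neurog1 sort (2499 CPM) and 59.6% in the reference (4270 CPM). The 14 day over uninjured difference in the Neurog1 sort was −3.76 on the log2 scale and −3.26 without the highest cell of each group. Engrafted cells stood above 14 day OMP cells by 2.88, and by 3.12 without the highest cells. The 14 day OMP sort stood below the reference neurons (9.78 against 101.04 CPM, log2 ratio −3.24), but the ratio was −3.76 against run 1 and −0.98 against run 2, so 1 run carries most of it.

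The balance of the catalytic subunits was read from FPKM, a level per length, so that both genes could be set side by side. Mean FPKM of Ezh2 and Ezh1 was 135.99 and 24.6 in the uninjured Neurog1 sort, 99.5 and 10.2 at 5 days and 196.6 and 1.58 at 14 days. It was 25 and 2.37 in 14 day OMP cells, 1.53 and 18.8 in engrafted cells, and 8.72 and 12.7 in the reference. As log2 of the ratio of mean FPKM + 1, Ezh2 over Ezh1, the balance was 2.42, 3.17 and 6.26 in the Neurog1 sorts, 2.95 in 14 day OMP cells, −2.97 in engrafted cells and −0.50 in the reference. Without the highest cell of each gene these were 3.16, 3.70, 6.08, 3.08, −3.27 and 0.37, so the sign held in the 5 sorts and flipped in the reference. The reference runs also differed in sign, with −1.19 in run 1 and 1.26 in run 2. The 65 reference cells with higher neuron markers stood at −1.60, or −0.81 without the highest cells. In these neurons, Ezh2 had the higher FPKM in 7 of the 18 cells with either gene found. Their balance was not computed by run. Mean Ezh1 in them rested largely on run 1: the log2 ratio of 14 day OMP cells over these neurons was −3.76 against run 1 and −0.98 against run 2. For Ezh2 the same ratios were 1.81 and 1.54. Whether the neurons of both runs lean toward Ezh1 was not tested. Reference cells with higher sustentacular markers had a balance of 1.85.

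Counted by cell, Ezh2 alone was found in 22 uninjured Neurog1 cells, 21 at 5 days and 17 at 14 days, while Ezh1 alone was found in 4, 4 and 1. Both genes were found in 4, 5 and 2 of these cells. The 14 day OMP sort had 8 cells with Ezh2 alone, 2 with Ezh1 alone, 2 with both and 30 with neither. In the engrafted sort 1 cell had Ezh2 alone, 6 had Ezh1 alone, 1 had both and 21 had neither. The reference had 14, 12, 12 and 100 cells in these classes, and 9 of its 12 cells with both genes were the libraries with over 10000 genes. Among cells with either gene found, Ezh2 had the higher FPKM in 25 of 30 uninjured Neurog1 cells (83.3%, 65.3 to 94.4), 25 of 30 at 5 days and 19 of 20 at 14 days (95%, 75.1 to 99.9). This was so in 10 of 12 cells of the 14 day OMP sort (83.3%, 51.6 to 97.9), 1 of 8 engrafted cells (12.5%, 0.316 to 52.7) and 20 of 38 reference cells (52.6%, 35.8 to 69). The engrafted interval did not overlap those of the Neurog1 sorts and overlapped those of the 14 day OMP sort and the reference.

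**Figure D2:**
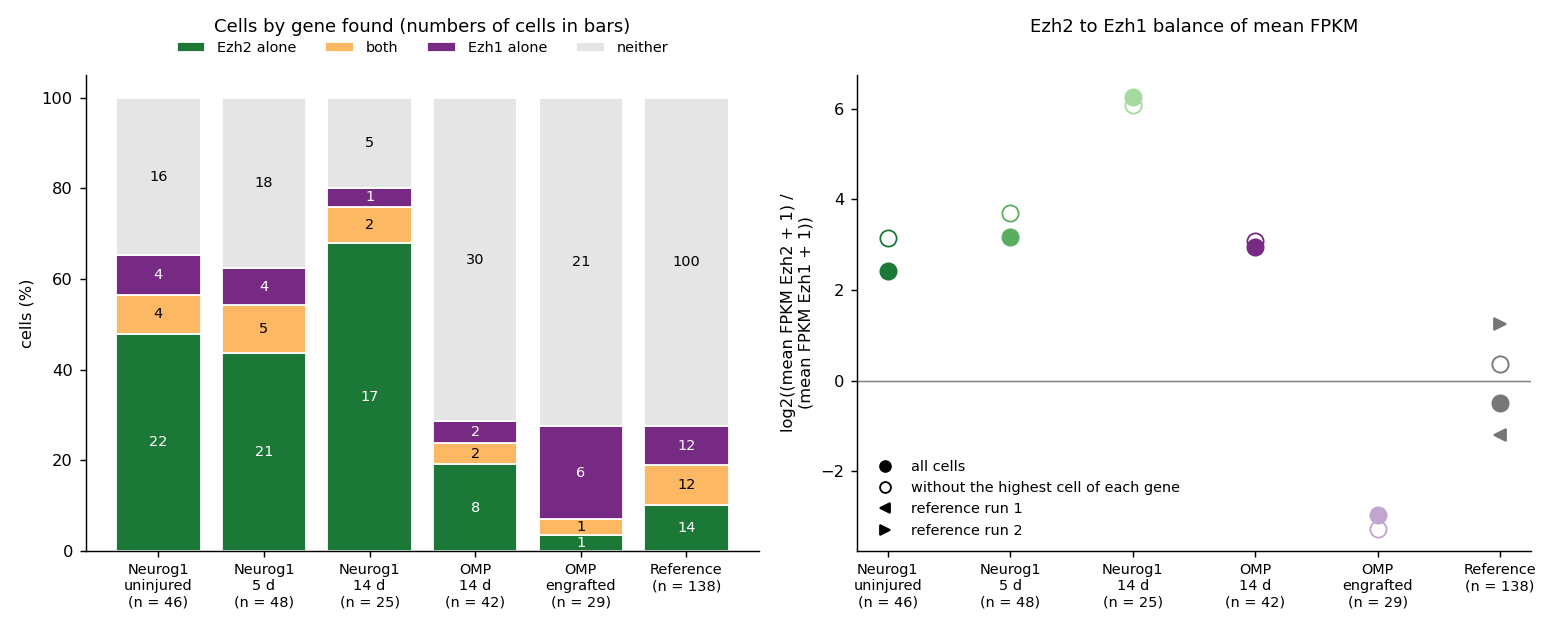
Left, share of cells (%) with Ezh2 alone, both genes, Ezh1 alone or neither at or above a CPM of 10, by group, with the number of cells in each bar. Right, log2 ratio of mean FPKM + 1, Ezh2 over Ezh1, with all cells (filled), without the highest cell of each gene (open) and for each reference run (triangles): the 3 Neurog1 sorts and the 14 day OMP sort lie above 0, the engrafted sort at −2.97, and the reference runs fall on either side of 0.

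Suz12, the scaffold of PRC2, was the other core subunit that set the uninjured Neurog1 sort apart. Suz12 was found in 31 of 46 uninjured Neurog1 cells (67.4%, interval 52 to 80.5) against 51 reference cells (37%, 28.9 to 45.6), and these intervals did not overlap. Its mean CPM there was 611.1 against 115.6 (log2 ratio 2.39, with 2.57 against run 1 and 2.24 against run 2). Per cell, Suz12 ran from 0 through a median of 137.6 to 4310 CPM in uninjured Neurog1 cells, and from 0 through a median of 0 to 1516 in the reference.

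After bulbectomy the share of Neurog1 cells with Suz12 was 56.2% (41.2 to 70.5) at 5 days and 64% (42.5 to 82) at 14 days, and the mean CPM was lower. It was 244.6 at 5 days, against 611.1 uninjured (log2 ratio −1.32), and 138.4 at 14 days, against 611.1 uninjured (−2.13). The highest cell was at 4310 CPM uninjured, 2253 at 5 days and 800 at 14 days, and the median at 137.6, 50.4 and 24.5, so the level was lower while the share intervals overlapped. The make-up of the sort also differed by stage. Omp was found in 58.7% of uninjured cells (mean 854 CPM), 35.4% at 5 days (118.2) and 32% at 14 days (96.9), and Gap43 in 52.2%, 72.9% and 72%. Among cells with Neurog1 found, mean Suz12 was 860.2 CPM uninjured, 277.5 at 5 days and 134.9 at 14 days. Over 12 alternative settings the 14 day difference stayed between −2.37 and −1.87. Ezh2 did not follow this order, since its 14 day mean was the highest of the 3 stages. Mean Suz12 was 147.05 CPM in 14 day OMP cells (found in 47.6%) and 95.4 in engrafted cells (37.9%), within 2-fold of the reference neurons at 124.6.

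Eed, the subunit that reads the methyl mark, was low in all groups and lowest in engrafted cells. Cells with Eed made up 23.9%, 20.8% and 24% of the Neurog1 sorts, 11.9% of 14 day OMP cells, 6.9% of engrafted cells (interval 0.846 to 22.8) and 33.3% of the reference (25.5 to 41.9). The engrafted and reference intervals did not overlap, but the reference share includes the 9 libraries with over 10000 genes, all with Eed found. The separation rests on them, since without them the 2 intervals overlapped. They also overlapped after thinning to 100000 fragments, at 11.5% of engrafted cells (2.45 to 30.2) and 36.8% of the reference (28.7 to 45.5). Mean CPM in engrafted cells was 7.87 against 62.8 in the reference neurons (log2 ratio −2.85), with −2.64 and −3.16 against the neurons of each reference run. The 14 day OMP cells were at 18.8 CPM against 39.6 in 14 day Neurog1 cells (−1.04), but 1 Neurog1 cell at 714.3 CPM held 72.1% of that sum, and without the highest cells the ratio was −0.26.

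The histone-binding subunits Rbbp4 and Rbbp7 are near copies of each other, and Rbbp4 overlaps Sync and Rbbp7 overlaps Txlng, so their values are uncertain. Rbbp4 was found in 78.3%, 70.8% and 80% of the Neurog1 sorts, 54.8% of 14 day OMP cells, 34.5% of engrafted cells (interval 17.9 to 54.3) and 59.4% of the reference. The engrafted interval did not overlap any of the 3 Neurog1 intervals. After thinning to 100000 fragments, the engrafted share was 46.2% (26.6 to 66.6). That interval overlapped those of the Neurog1 sorts at 5 days (60.4 to 86.4) and 14 days (63.9 to 95.5). It did not overlap that of uninjured Neurog1 cells (67.9 to 92). In the order of groups given first, mean Rbbp4 CPM was 326.9, 215.6, 258.8, 150.7, 296.5 and 200.8, and 1 engrafted cell at 7353 CPM held 85.5% of that group's sum. Without it the engrafted mean was 44.5. Rbbp7, which is X-linked, was found in 13.8% to 34.1% of cells with all 15 pairs of intervals overlapping. Its mean was 30.7 CPM in uninjured Neurog1 cells against 87.2 in the reference (log2 ratio −1.48, with −0.91 against run 1 and −1.87 against run 2). The labels give no sex. Xist, which marks cells with 2 X chromosomes, was found in 19.6%, 4.17% and 0% of the Neurog1 sorts (up to 12% allowed by a count of 0 at 14 days), 78.6% of 14 day OMP cells, 0% of engrafted cells (up to 10.3% allowed) and 60.9% of the reference, so the sex of the animals may differ between these groups. Its part in the Rbbp7 differences, including engrafted over 14 day OMP cells (−1.36), and in those of other members was not tested.

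Jarid2 was the most widely found member in the 5 day Neurog1 sort and in both OMP sorts. Jarid2 was found in 65.2%, 77.1% and 80% of the Neurog1 sorts, 83.3% of 14 day OMP cells (interval 68.6 to 93), 69% of engrafted cells and 53.6% of the reference (44.9 to 62.1). The 5 day Neurog1 sort (62.7 to 88) and the 14 day OMP sort lay apart from the reference. Median Jarid2 per cell was 124.99 CPM uninjured, 512 at 5 days and 708 at 14 days in the Neurog1 sorts, 243.4 in 14 day OMP cells, 209.2 in engrafted cells and 20.51 in the reference, with cells at 0 in every group. Mean CPM was 554.5, 839.4 and 819 in the Neurog1 sorts, 407.9 in 14 day OMP cells, 505.9 in engrafted cells and 270.4 in the reference. Jarid2 was thus found in most cells of both OMP sorts, where Ezh2 was found in 23.8% and 6.9%. The share in 14 day OMP cells lay above that in the reference neurons (83.3% against 50.8%, 38.1 to 63.4) without overlap of intervals, although the means differed by under 2-fold (log2 ratio 0.53).

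**Figure D3:**
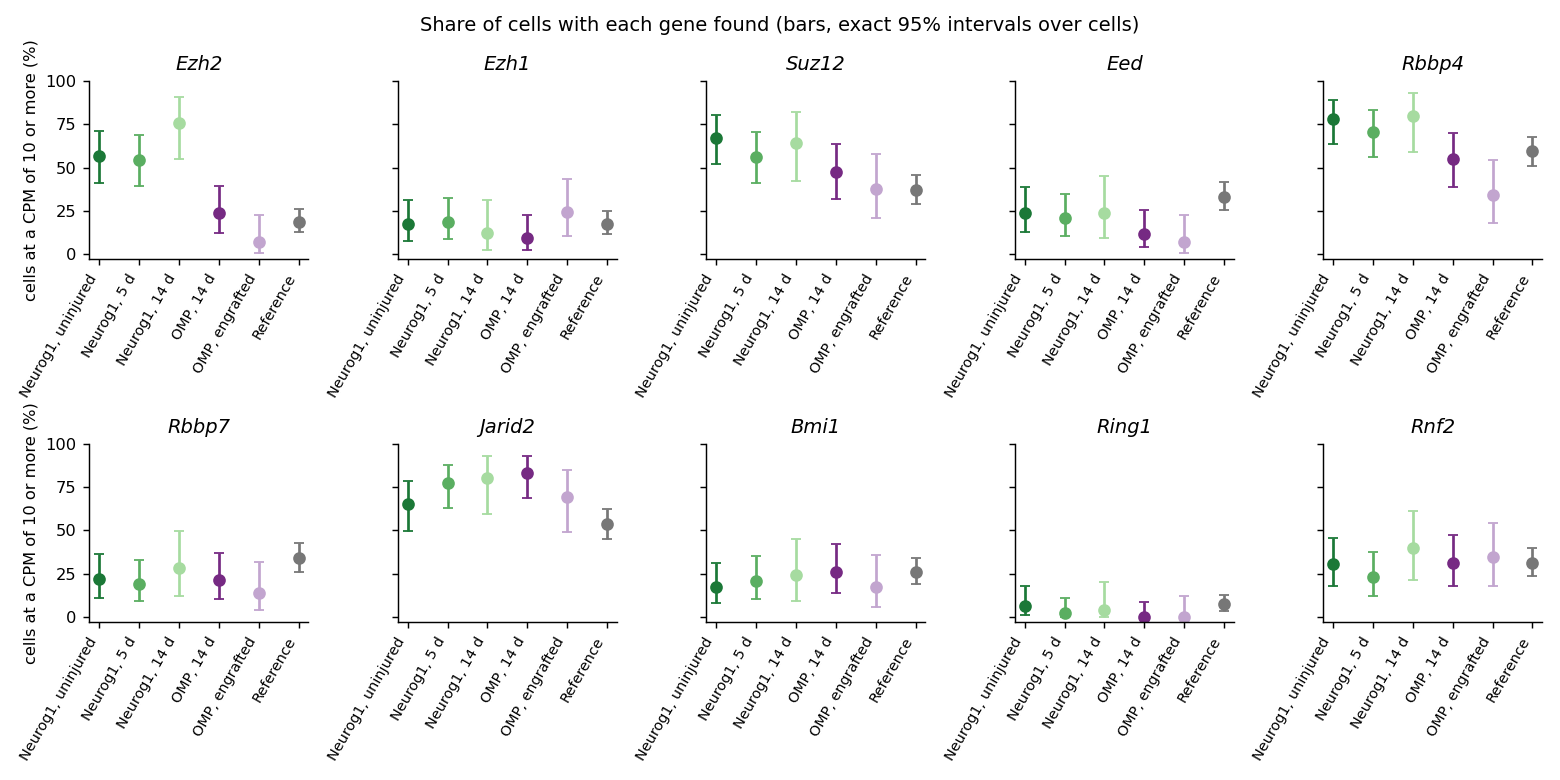
Share of cells (%) with each member at or above a CPM of 10, by group, with exact 95% intervals over cells. Ezh2 separates the 3 Neurog1 sorts (54.2% to 76%) from the engrafted sort and the reference, Jarid2 stays at 65.2% or more in all 5 sorts, and the intervals of Ezh1, Rbbp7, Bmi1, Ring1 and Rnf2 overlap in all pairs of groups.

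None of the PRC1 members Bmi1, Ring1 and Rnf2 separated any pair of groups by its share of cells. Rnf2, the main ligase, was found in 30.4%, 22.9% and 40% of the Neurog1 sorts, 31% of 14 day OMP cells, 34.5% of engrafted cells and 31.2% of the reference, and all 15 pairs of intervals overlapped. Its mean CPM differed more: 167.7, 204.3 and 398.04 in the Neurog1 sorts, 189.8 in 14 day OMP cells, 419.6 in engrafted cells and 155.2 in the reference. Engrafted cells stood above the reference neurons (419.6 against 79.2 CPM, log2 ratio 2.39), with 3.52 against run 1 and 1.40 against run 2. Among cells with Rnf2 found, the median was 894.7 CPM in engrafted cells against 82.3 in reference neurons. The 9 reference libraries with over 10000 genes all had Rnf2 found, at 50.2 to 94.1 CPM, so this contrast rests in part on them.

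Bmi1 was found in 17.4%, 20.8% and 24% of the Neurog1 sorts, 26.2% of 14 day OMP cells, 17.2% of engrafted cells and 26.1% of the reference. Its means were set by single cells: 1 cell of the 5 day Neurog1 sort at 19663 CPM held 86.2% of the group's sum, and 1 engrafted cell at 7128 CPM held 73.5%. The 5 day over uninjured log2 ratio was 1.57 with that cell and −0.45 without the highest cell of each group, so it has no stable direction. Ring1 was at or near 0 in nearly every cell. Ring1 was found in 3 of 46, 1 of 48 and 1 of 25 cells of the Neurog1 sorts, and in 0 of 42 cells of the 14 day OMP sort (a count of 0 allows up to 7.14%). It was found in 0 of 29 engrafted cells (up to 10.3% allowed) and in 10 reference cells (7.25%), of which 8 were libraries with over 10000 genes.

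Per length, the leading member differed between groups. Suz12 (140.5) and Ezh2 (135.99) had the highest mean FPKM of the 10 genes in the uninjured Neurog1 sort, followed by Jarid2 (93.5). Jarid2 led at 5 days (142.6), and Ezh2 led at 14 days (196.6) ahead of Jarid2 (138.1) and Rnf2 (134.7). In 14 day OMP cells Jarid2 (69.1) and Rnf2 (65) led and Ezh2 was at 25. In engrafted cells Rnf2 led (142.6) and Ezh2 was the ninth of the 10 (1.53), above Ring1 (0.152). Ezh2 was also the ninth in the reference (8.72), where Rnf2 led (53.6). Neighbours in these orders cannot be told apart, since the means rest on few cells.

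Of the 10 members, 9 had a mean CPM of 5 or more in at least 1 group of each comparison, and Ring1 did not in any. In the uninjured Neurog1 sort over the reference, 3 members were 2-fold higher or more (Ezh2, Suz12 and Jarid2, at 1.03, with 0.99 without the highest cells and 0.77 against run 2), where 22.4% of 11061 genes were, and 1 was lower (Rbbp7), where 32.6% were. The median of the 9 was 0.70, against −0.16 over all genes. At 5 days over uninjured, 1 member was higher (Bmi1; background 20.9% of 10054 genes) and 2 were lower (Suz12 and Ezh1 at −1.25; background 26.3%). With libraries of 2000 or more genes Ezh1 was at −0.26. At 14 days over uninjured, 1 was higher (Rnf2, 1.24, with 0.78 at 2000 or more genes; background 22%) and 2 were lower (Ezh1 and Suz12; background 29.9%). At 14 over 5 days, 0 were higher (background 23.8%) and 2 were lower (Ezh1 at −2.52 and Bmi1 at −1.32, with 0.53 without the highest cells; background 27.1%). With each alike pair counted once, Ezh2 and Rnf2 also passed 2-fold, upward, and the count was 4. Within the Neurog1 sorts, counts of 0 to 2 of 9 per direction do not exceed these background shares.

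In 14 day OMP over 14 day Neurog1 cells, 0 members were higher (background 32.4% of 10022 genes) and 5 were lower (Ezh2, Eed, Jarid2 at −1.004, Bmi1 at −1.35 and Rnf2 at −1.06; background 28.6%). Of these, Bmi1 was at −0.92 without the highest cells, and Rnf2 and Jarid2 were at −0.71 and −0.81 with libraries of 2000 or more genes. The median of the 9 members was −1.004 against 0.04 over all genes, and of the 5 only Ezh2 had share intervals that did not overlap. In engrafted over 14 day OMP cells, 3 were higher (Ezh1, Bmi1 at 2.16 and Rnf2 at 1.14; background 21.7%) and 3 lower (Ezh2, Eed at −1.16 and Rbbp7 at −1.36; background 35%). Bmi1 was at 0.85 without the highest cells, and Eed at −0.16 without the sorted libraries that held sustentacular markers. In 14 day OMP cells over reference neurons, 2 were higher (Ezh2 and Rnf2 at 1.25; background 20.9%) and 2 lower (Ezh1 and Eed at −1.69; background 32.7%). Against the neurons of run 2 alone, Rnf2 was at 0.26 and Ezh1 at −0.98. In engrafted cells over reference neurons, 2 were higher (Bmi1 at 1.69, with 0.30 without the highest cells, and Rnf2; background 18.7%) and 3 lower (Ezh2, Eed and Rbbp7 at −1.35, with −0.84 against run 1; background 42.7%). Of the 32 ratios of 2-fold or more in the 8 comparisons, 13 stayed past 2-fold under every alternative run: 4 of Ezh2, 3 each of Suz12 and Ezh1, 2 of Rnf2 and 1 of Eed. The other 19 were under 2-fold, or changed sign, in at least 1 alternative. With 9 members each count is of few genes, and nothing particular to the set is read from these shares. The last 2 comparisons share the reference neurons, and several others share a Neurog1 or OMP group.

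**Figure D4:**
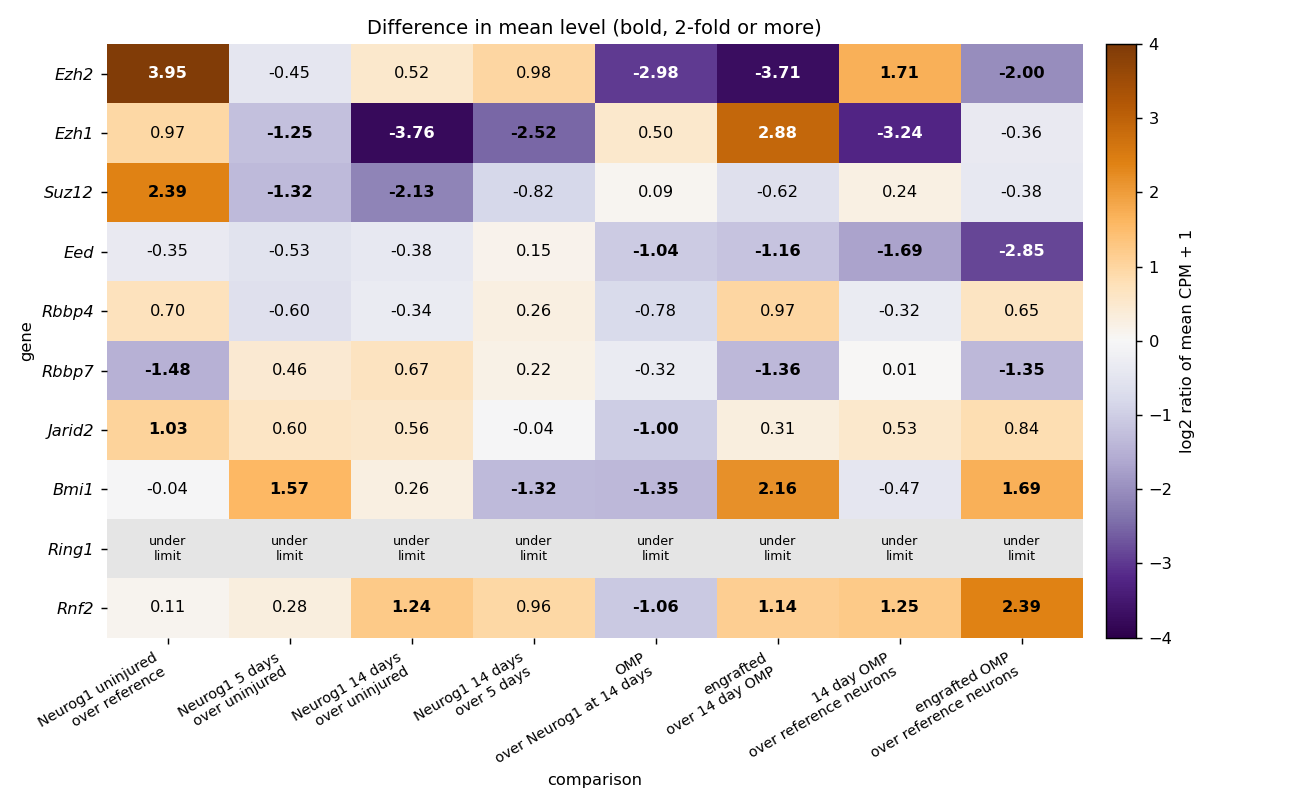
Log2 ratio of mean CPM + 1 of each member (rows) in each of the 8 comparisons (columns), the first-named group over the second, with ratios of 2-fold or more in bold and "under limit" where neither mean reached a CPM of 5. Ezh2 runs from 3.95 in the uninjured Neurog1 sort over the reference to −3.71 in engrafted over 14 day OMP cells, and Suz12 and Ezh1 are negative in both injured Neurog1 stages over uninjured.

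The wider Polycomb machinery was read from a list of 30 other genes: 5 accessory PRC2 subunits, 19 further PRC1 subunits, 2 demethylases of the PRC2 mark and 4 genes of H2A deubiquitination. In the uninjured Neurog1 sort over the reference, 5 of 28 measured were higher (background 22.4%) and 8 lower (background 32.6%), with a median of −0.03. Among them, Mtf2, a PRC2 subunit that binds CpG-rich DNA, was at 1081 CPM against 215.3 (log2 ratio 2.32) and was found in 73.9% of cells (interval 58.9 to 85.7) against 29% (21.6 to 37.3). Mtf2 remained found in 75% and 72% of Neurog1 cells at 5 and 14 days, in 45.2% of 14 day OMP cells and in 41.4% of engrafted cells. Its mean was 471.3 CPM at 5 days and 288.4 at 14 days, lower than in uninjured cells as for Suz12. The reference runs differed, at 75.3 CPM in run 1 and 351.3 in run 2. In engrafted cells over reference neurons, 4 of 27 were higher (background 18.7%) and 14 lower (background 42.7%), with a median of −1.03 where all genes had −0.64. Of 18 PRC1 subunits measured there, 2 were higher and 11 lower, to be read against the same backgrounds. Scmh1, a PRC1-associated protein, was found in 0 of 29 engrafted cells (up to 10.3% allowed) against 23.1% of reference neurons (13.5 to 35.2), and its mean was 0.0483 against 25.2 CPM. In the other comparisons 3 to 9 of 23 to 26 measured genes were higher, against backgrounds of 20.9% to 32.4%, and 5 to 12 lower, against 26.3% to 35%.

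Within the Neurog1 sorts, cells were split by markers of maturation: 53 with Neurog1 found, 23 with Gap43 (a growth cone protein of immature neurons) but neither Neurog1 nor Omp, and 36 with Omp but not Neurog1. Ezh2 was found in 37 of the 53 (69.8%, interval 55.7 to 81.7), 12 of the 23 (52.2%, 30.6 to 73.2) and 19 of the 36 (52.8%, 35.5 to 69.6). Its mean FPKM was 193.05, 56.9 and 54 in these sets, and the share intervals overlapped. The sets differ in stage: uninjured, 5 day and 14 day cells numbered 23, 18 and 12 where Neurog1 was found, 2, 15 and 6 in the Gap43 set, and 19, 11 and 6 in the Omp set. Within stages, mean Ezh2 was 505, 495.3 and 480.2 CPM where Neurog1 was found and 135.01, 158.3 and 109.1 in the Omp set. In the Gap43 set it was 0, 99.5 and 309.3 CPM. The 7 cells with none of these markers included the highest Ezh2 cell of all, at 4319 CPM. Suz12 was found in 71.7%, 60.9% and 52.8% of these sets. Ezh1 was found in 13.2%, 30.4% and 16.7%, and Jarid2 in 66%, 87% and 75%, in both cases most often in the Gap43 set, again with intervals that overlapped. Cells of the Neurog1 sorts with Omp still had Ezh2 in 52.8%, against 24.4% (12.4 to 40.3) of the 41 OMP-sorted cells at 14 days with Omp found, and these intervals overlapped in part.

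**Figure D5:**
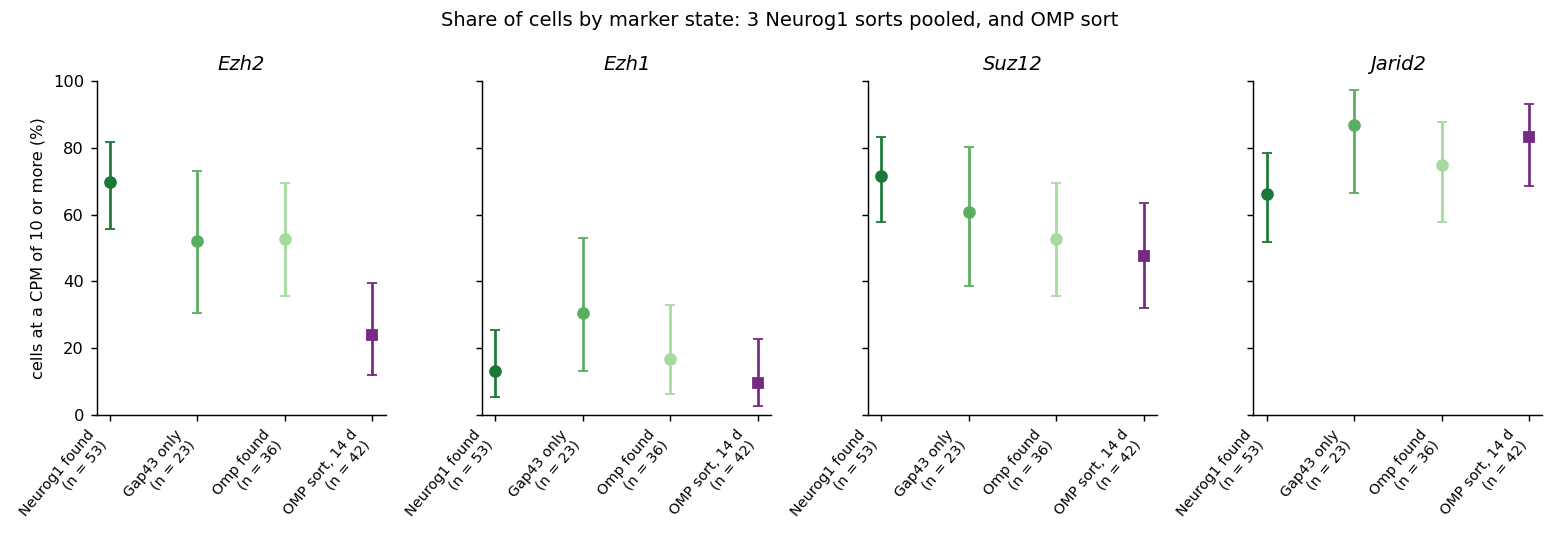
Share of cells (%) with Ezh2, Ezh1, Suz12 and Jarid2 at or above a CPM of 10 in the pooled Neurog1 sorts split by marker state (circles: Neurog1 found, Gap43 without Neurog1 or Omp, Omp without Neurog1) and in the 14 day OMP sort (squares), with exact 95% intervals over cells. Ezh2 stands at 69.8% where Neurog1 was found and at 23.8% in the OMP sort, while Jarid2 stands at 66% and 83.3%.

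Since Ezh2 is known for dividing cells, cells with 3 or more of 14 G2M phase genes found were counted. There were 6 such cells in the Neurog1 sorts, of which 2 were an alike pair, and 5 had Ezh2 found, at 101.8 to 2205 CPM. The mean over all 6 cells, with both libraries of the alike pair counted, was 1018 CPM. In the other cells, Ezh2 was found in 66 (58.4%, interval 48.8 to 67.6), with a mean of 308.1 CPM. The mean FPKM of Ezh2 was 395.7 in the cells with 3 or more G2M genes and 120.1 in the others, of which some carried 1 or 2. With 6 such cells, the part of division in the Ezh2 shares was not tested. In the 14 day OMP and engrafted sorts 0 cells had 3 or more G2M genes. The reference had 10 such cells, all with Ezh2 found, at 21.3 to 395.5 CPM. Of these 10, only 4 were libraries with 10000 genes or fewer, and these 4 included an alike pair.

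Transcripts of the PRC2 core were rarely all found in the same cell. Of the 71 Neurog1-sort cells with Ezh2, 50 also had Suz12 (70.4%) and 19 had Eed (26.8%), against 24 (50%) and 8 (16.7%) of the 48 cells without Ezh2. Ezh2, Suz12 and Eed were found together in 11 Neurog1-sort cells, 1 cell of the 14 day OMP sort, 0 engrafted cells and 17 reference cells, 9 of them libraries with over 10000 genes. Jarid2 was found in 48 of the 71 (67.6%, interval 55.5 to 78.2) and 39 of the 48 (81.2%, 67.4 to 91.1), and these intervals overlapped. By stage its order differed: 53.8% with and 80% without Ezh2 in uninjured cells, 69.2% and 86.4% at 5 days, and 84.2% and 66.7% at 14 days. In the reference Jarid2 was found in 80.8% of cells with Ezh2 and 47.3% of those without it. Those with Ezh2 include the 9 libraries with over 10000 genes, all with Jarid2 found. Cells with Ezh2 were deeper than those without it, with median fragments of 1089382 and 867282, and the part of depth in these shares was not tested. A cell of the Neurog1 sorts had 0 to 8 of the 10 members found, with a median of 4.

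Over the 7 group means (the reference by run), the genes whose pattern was most like Ezh2 were Podxl (Pearson r = 0.992), Magi3 (0.992), Brd8 (0.988), Rbm5 (0.984) and Bach2 (0.980), of 9118 genes compared. Bach2, a transcription factor, had mean CPM of 192.4, 112.8 and 207.7 in the Neurog1 sorts, 10.1 in 14 day OMP cells, 0.0576 in engrafted cells, and 5.82 and 10.4 in the reference runs. In all, 25 genes reached an r of 0.95 with Ezh2. For Ezh1 the nearest were Nck1 (0.962), Brat1 (0.957), Pfdn1 (0.956), Gldc (0.9497) and Rnf187 (0.937), and 3 genes reached 0.95. Among the members, the pattern nearest to Ezh2 was that of Suz12 (0.68), then Jarid2 (0.63), and Ezh1 stood at −0.24. These values describe 7 points that share libraries and depth, and the Ezh1 means rest on few cells.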

How the data were processed

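Single-cell libraries from mouse olfactory epithelium were prepared with the Fluidigm C1 system and Nextera XT, per the labels' protocols. FastQC, STAR 2.5.2a, Cufflinks 2.2.1, Cuffnorm and build mm9 are named in the submitters' processing notes, with no role or annotation given in the sources used here. In turn, the deposited count table holds fragment signal that the authors scaled to near-equal column sums (99.9% of nonzero values were not whole), so it was treated as signal and not as counts, and no count test was run. FPKM values are those of the authors' deposited table, and were used to set genes side by side and for the balance.

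From the count table, 27 entries with date-like names (0.418% of the signal) were left out, and CPM was computed over the remaining 23281 genes. Of 469 libraries, 328 with 1000 or more genes at a value of 1 or more were kept. The value of 1 fragment was recovered in each cell from the steps between low values: a median of 98.3% of values (lowest 96.3%) came out whole within 0.02, and the kept cells held 13369 to 2186039 fragments. At the median depth of a group, 1 fragment was worth 0.742 to 1.99 CPM. A limit on a share of 0 is 3 cells of the total. Intervals cover counting error only, since PCR copies without molecular identifiers do not count molecules. No doublet caller was run, and the labels name no animal, so no p-value or error between animals could be given. Genes that overlap or are near copies cannot be separated without strand.

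Groups were set from the labels. A member was measured in a comparison where either mean CPM was 5 or more, and past 2-fold where the log2 ratio of mean CPM + 1 was 1 or more in size. The members and lists were chosen with earlier results of these data known. Named genes are the members, other Polycomb genes past 2-fold whose higher mean CPM reached 20, with non-overlapping share intervals, and the 5 genes nearest to Ezh2 and to Ezh1. The alternatives were the found limit, the pseudocount, the gene filter, the denominator, summed fragments, the highest cell left out, the FPKM table, the reference runs, and the libraries that stood apart left out. Counting alike libraries once was chosen after seeing the data. Scripts used Python 3.11.15, NumPy 2.4.6, pandas 2.3.3, SciPy 1.17.1 and Matplotlib 3.10.9, and were tested on simulated data.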

Additional observations from a re-analysis of the deposited data

How the results depend on the processing

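The direction of all 8 Ezh2 ratios held under every alternative run, and 13 of their alternative values moved by 1.5-fold or more. A pseudocount of 10 gave −2.40 for engrafted over 14 day OMP cells, −1.04 for engrafted cells over reference neurons, balances of 2.44, 4.16, 1.5003 and −1.32 in Neurog1 cells at 5 and 14 days, 14 day OMP and engrafted cells, and 3 members past 2-fold in OMP over Neurog1 cells at 14 days, which the FPKM table also gave (3, main count 5). A pseudocount of 0.1 gave a 14 day Neurog1 balance of 6.87. With found set at a CPM of 1 the uninjured Neurog1 share of Ezh2 was 71.7%, and at 50 the reference share was 10.1%. With 2000 or more genes per library, Ezh2 was −3.01 for engrafted over 14 day OMP cells and 0.88 for 14 day OMP cells over reference neurons, the balance was 3.42 in uninjured Neurog1 cells, −1.68 in engrafted cells and 0.76 in the reference, and Bmi1 reversed to −1.05 (5 days over uninjured) and 1.52 (14 over 5 days). With all libraries, Ezh2 was 1.61 (Neurog1 14 days over uninjured), 1.74 (14 over 5 days), −3.77 (OMP over Neurog1 at 14 days), −4.70 (engrafted over 14 day OMP) and −2.76 (engrafted over reference neurons), the balance was 6.99 in 14 day Neurog1 and −2.25 in engrafted cells, 5 members passed 2-fold at 14 days over uninjured (main count 3), and Eed reversed to 0.93 (OMP over Neurog1 at 14 days) and 0.58 (14 day OMP over reference neurons). Summed fragments gave Ezh2 as 0.27 (Neurog1 14 over 5 days), −2.54 (engrafted over 14 day OMP) and −1.31 (engrafted over reference neurons). Without the highest cell, Ezh2 was −4.49 for engrafted over 14 day OMP cells, the balance was 3.16 in uninjured Neurog1 cells and 0.37 in the reference, and Bmi1 reversed to −0.45 (5 days over uninjured) and 0.53 (14 over 5 days). The reference balance was −1.19 in run 1 and 1.26 in run 2, and against run 2 alone 2 members passed 2-fold in 14 day OMP cells over reference neurons (main count 4). With alike libraries counted once, 4 members passed at 14 over 5 days (main count 2). Beyond what each setting leaves out, the cause was not tested. Among the other members' ratios, 811 of 918 alternative values moved by less than 1.5-fold, and 52 had the other sign, 6 of them for ratios past 2-fold (those of Bmi1 and Eed given here). Shallow engrafted and reference cells, where 1 fragment was worth 1.99 and 1.98 CPM at the median, limit what low means show. No paired analysis was possible because no test was run and the labels name no animal that groups share.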

Other observations

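Among libraries left out for holding under 1000 genes, Ezh2 was found in 0 of 15, 1 of 3 and 1 of 1 of the Neurog1 sorts (uninjured, 5 days, 14 days), 1 of 8 of the 14 day OMP sort, 0 of 60 of the engrafted sort and 1 of 54 of the reference. At least 1 of the 10 members was found in 14 of the 60 engrafted libraries left out.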
